A study of Homo sapiens with 6 samples.

Results

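The transcripts described here are those of 10 genes that govern passage through the G1 phase of the cell cycle, out of 29538 genes in the count table. They are the inhibitor genes CDKN1A (p21), CDKN1B (p27), CDKN2C (p18) and CDKN2D (p19), the cyclin genes CCND1, CCND3, CCNE1 and CCNE2, and the kinase genes CDK4 and CDK6. They were picked by symbol, and all 10 were in the table and passed the filter on low counts. RNA came from MDA-MB-231, an established human breast cancer line of mesenchymal character. The depleted cultures received SI-BYSL-Homo-838, an siRNA against BYSL (siBYSL, 3 cultures), and the controls a negative-control siRNA (siNC, 3 cultures). Both groups had 160 pmol siRNA per well with 4 µL of the lipid reagent Lipofectamine RNAiMAX, a medium change at 6 h and harvest at 48 h. BYSL encodes bystin, a factor for maturation of the small ribosomal subunit, and the comparison asks how its depletion changed the transcriptome. The labels call the cultures independent biological replicates. A single siRNA sequence was used against BYSL, so the effects of losing BYSL and those of the siRNA on other transcripts cannot be told apart by this design.

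D-type cyclins bind CDK4 and CDK6, and E-type cyclins bind CDK2. These kinases phosphorylate the retinoblastoma protein, which frees E2F transcription factors to switch on genes of S phase. INK4 proteins such as p18 and p19 block CDK4 and CDK6. CIP/KIP proteins such as p21 and p27 block cyclin-CDK2 complexes and also help cyclin D to assemble with its kinases. CDKN1A is controlled largely at transcription, by factors that respond to stress, growth arrest and differentiation.

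Library totals were 27754883 to 32088817 counts. BYSL itself stood at 15.9, 15.7 and 17.4 CPM (counts scaled to library size) in siBYSL 1 to 3, against 104, 94.5 and 101 CPM in siNC 1 to 3, so every library followed its label. Of 6 genes checked as present in the line, VIM averaged 2085 CPM in siBYSL and 2404 CPM in siNC. On the log2 scale VIM, AXL, CAV1, MSN and EGFR fell by 0.21, 0.51, 0.47, 0.23 and 0.23, and CD44 rose by 0.19. Among 8 genes of other cell types 3 passed the filter. CD68 (5.32 CPM in siBYSL) and PDGFRB (6.08 CPM in siBYSL) rose by 0.49 and 0.40, and PECAM1 was not called. ESR1 and PGR, the hormone receptor genes that the line lacks, reached at most 3 and 11 counts in any library. Of 5 further epithelial or receptor genes KRT8 averaged 719.2 CPM in siBYSL and 704.7 CPM in siNC and GATA3 was not called, while CDH1 (9.18 CPM in siBYSL, 4.48 CPM in siNC), EPCAM and ERBB2 rose by 1.04, 0.54 and 0.27. A chi-square of the counts, per degree of freedom, was 3.44 between siBYSL 1 and siBYSL 2 and 2.49 to 4.71 within siNC, but 22.1 and 13.6 when siBYSL 3 was set against siBYSL 1 and siBYSL 2. Results that turn on siBYSL 3 are given with and without it.

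Of the 10 genes, 7 fell, 1 rose and 2 did not pass the test in siBYSL. Calls were made with edgeR's quasi-likelihood test at a Benjamini-Hochberg adjusted p under 0.05 over 16412 genes. Over all genes tested 36.9% were called, 18.5% as higher and 18.4% as lower. Of those calls 50.04% were higher, against 67.37% when library totals replaced the TMM scaling factors; under library totals CDK4 lost its call and the other 9 genes of the group kept their direction and call. In 8 of the 10 genes the 3 siBYSL libraries did not overlap the 3 siNC libraries (49.6% of all genes), and in 7 of them siBYSL was the lower (24.9% of all genes). With each library left out in turn, 2121 to 3929 genes were called higher and 2105 to 4075 lower, the most without siBYSL 3. The median log2 fold change was -0.33 over the 10 genes and 0.01 over all genes tested. p21 changed most, CDKN2C rose, and CDKN1B and CCNE2 were not called.

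**Figure D1:**
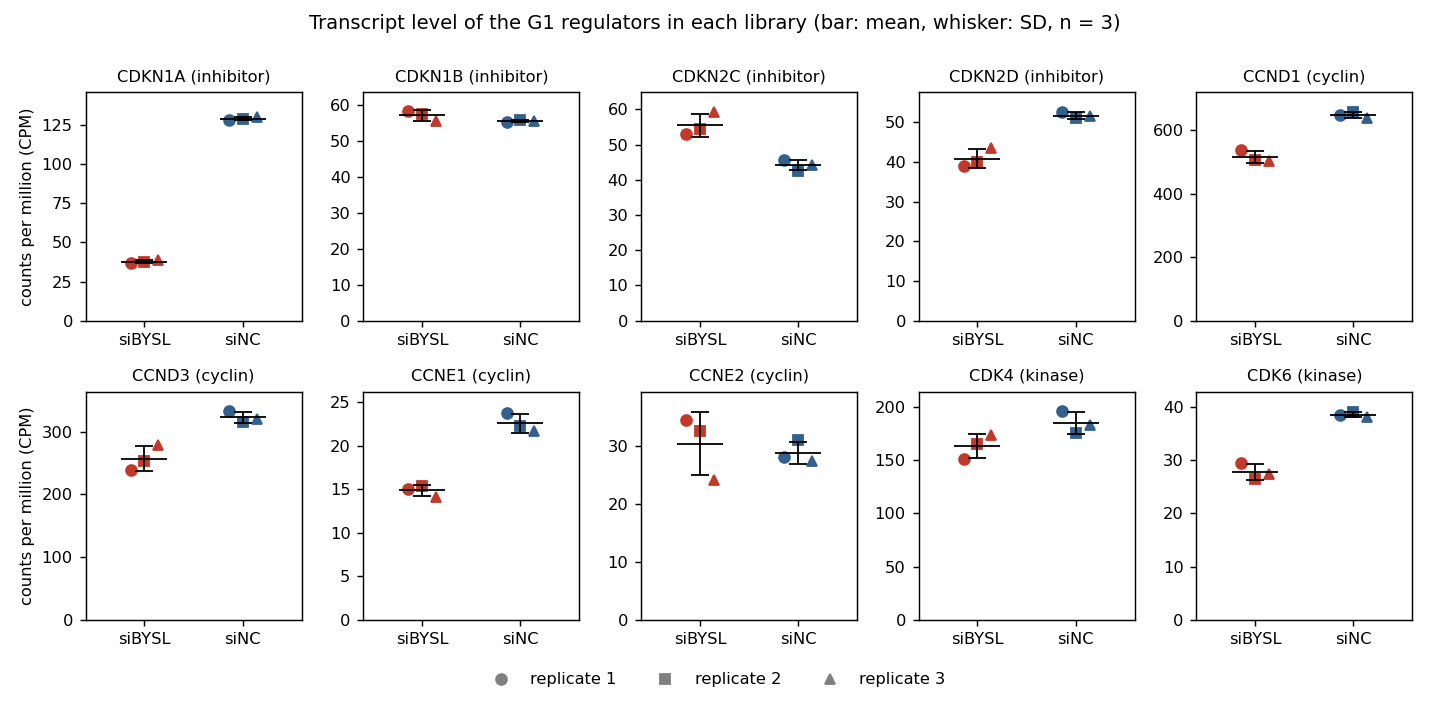
Transcript level (CPM) of each of the 10 genes in every library, with siBYSL in red at the left of each panel and siNC in blue at the right; markers give the replicate, bars the mean and whiskers the SD (n = 3). CDKN1A lies at 36.9 to 38.5 CPM in siBYSL and at 128 to 130 CPM in siNC, while CDKN1B and CCNE2 overlap between groups.

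CDKN1A (ENSG00000124762.14, chromosome 6, 36676460 to 36687339, plus strand, GRCh38) encodes p21. It stood at 36.9, 37.7 and 38.5 CPM in siBYSL 1 to 3, against 128, 129 and 130 CPM in siNC 1 to 3. The 3 siBYSL libraries lay close together and far below every siNC library. The siBYSL mean was 29.2% of the siNC mean. The log2 fold change was -1.78 (SE 0.050, 95% interval -1.89 to -1.67, edgeR adjusted p = 1.3e-08), the 19th lowest of 16412 genes. In bulk RNA, fewer cells with p21 transcript and less transcript per cell cannot be told apart.

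The transcript of CDKN1A can pair with the seed of the siRNA, the bases through which a small RNA strand finds partly matched targets. The strands of the BYSL siRNA are shown 5′ to 3′ as the labels give them, with the seed (bases 2 to 8) in capitals, because 2 of the 10 genes hold a match to the guide seed in their 3′ UTR.
guide (antisense) strand: uAUUCAGCaacgucaucuctt
passenger (sense) strand: gAGAUGACguugcugaauatt
The match to the guide seed is the heptamer GCTGAAT, searched on the transcript strand only, and the octamer GCTGAATA adds an A opposite the first base of the guide. Every octamer holds the heptamer. The stretch of CDKN1A that holds the octamer, at chr6:36687275-36687298 on the plus strand of GRCh38, is shown with the heptamer in capitals.
CDKN1A 3′ UTR: tcctcccacaatGCTGAATataca
The heptamer begins 1487 bases after the stop codon, and 46 bases follow it to the end of transcript CDKN1A-201. That transcript has the longest annotated 3′ UTR (1539 bases). Pairing with the guide runs without a break over 8 bases from the second base on, and the first base pairs as well.

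A 3′ UTR was annotated for 13067 of the tested genes, of which 11.9% carried the guide-seed heptamer and 3.15% the octamer. Among the 10 genes, CDKN1A and CDK6 held the heptamer in the 3′ UTR, and CDKN1A alone held the octamer there. The 412 genes with an octamer had a median log2 fold change of -0.14, and 39.8% of them fell. The 1137 genes with a heptamer but no octamer had a median of -0.08, and 31.6% fell. The 7736 genes with not even the hexamer CTGAAT had a median of 0.01, and 19.4% fell. The 3782 genes with a hexamer but no heptamer also had a median of 0.01, and 18.9% fell. The median 3′ UTR was 3252 bases in octamer genes, 3117 in genes with a heptamer alone, 2407 in genes with a hexamer alone and 804 in genes with none. CDKN1A lay far below most genes of its own class: 3 of the 412 octamer genes, itself among them, had a fold change as low. A match describes these letters and does not show that the siRNA acted on the transcript, which was not tested.

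**Figure D2:**
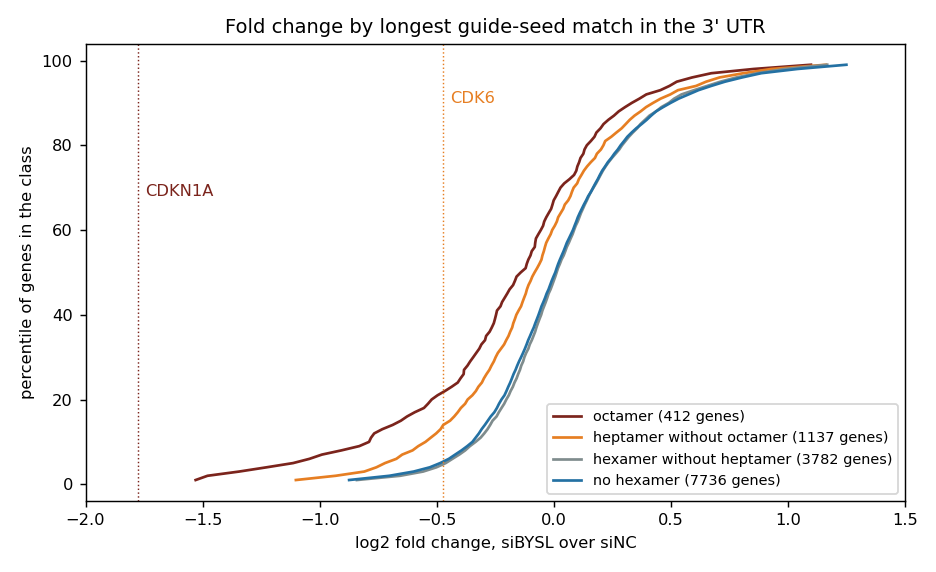
Percentile curves of the log2 fold change (siBYSL over siNC) for 13067 genes grouped by the longest guide-seed match in the longest annotated 3′ UTR, with CDKN1A and CDK6 marked by dotted lines. The octamer curve (412 genes, median -0.14) lies left of the curve for genes with no hexamer (7736 genes, median 0.01), and CDKN1A at -1.78 lies beyond nearly all of it.

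The genes whose pattern over the 6 libraries lay closest to that of CDKN1A were IDH1, IL11, IL24, EIF2S1 and RAB3IP. Likeness was the root mean square distance between log2 CPM after subtraction of the siNC mean, over 9922 genes of 10 CPM or more. The distance was 0.103 for IDH1, the cytosolic isocitrate dehydrogenase, 0.113 for the cytokine gene IL11 and 0.140 for the cytokine gene IL24. It was 0.203 for EIF2S1, a subunit of translation factor eIF2, and 0.205 for RAB3IP, an exchange factor for Rab GTPases. IDH1 and RAB3IP each held 2 guide-seed heptamers in the 3′ UTR and EIF2S1 held 1, whereas IL11 and IL24 held 0. EIF2S1 and RAB3IP each held 1 octamer, and IDH1, IL11 and IL24 held 0. Among genes with an annotated 3′ UTR, 11.9% carried the heptamer and 3.15% the octamer.

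Of 20 regulators of CDKN1A transcription tested, 5 rose and 2 fell, with a median of 0.08; the share called, 35%, was near the 36.9% of all genes. MYC, which represses CDKN1A, averaged 117.7 CPM in siBYSL and 113.3 CPM in siNC (log2 fold change 0.06, edgeR adjusted p = 0.503). SMAD3, a mediator of TGF-beta signals that can raise p21, fell by 0.44. The histone deacetylase gene HDAC1 rose by 0.32, STAT3 by 0.43 and FOXO1 by 0.38. TP73, at 2.60 CPM in siBYSL and 1.52 CPM in siNC, rose by 0.77. The remaining rise, SMAD2, lay at the edge of the test (0.16, edgeR adjusted p = 0.0492). Without siBYSL 3 the count of rises was 9, and it was 4 without any other single library. Over all genes, 3929 were called higher without siBYSL 3, against 3032 with every library. The other fall, EZH2, lay at the edge of the test (-0.15, edgeR adjusted p = 0.0479), and the count of falls was 1 without siBYSL 1, siBYSL 2 or any siNC library.

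CDKN1B (ENSG00000111276.12, chromosome 12, 12715058 to 12722371, plus strand) encodes p27, the relative of p21 that restrains cyclin E with CDK2. It stood at 58.5, 57.5 and 55.6 CPM in siBYSL 1 to 3, against 55.4, 56.0 and 55.6 CPM in siNC 1 to 3. The groups overlapped at siBYSL 3. The log2 fold change was 0.04 (95% interval -0.08 to 0.15, edgeR adjusted p = 0.589). CDKN1C, which encodes p57 and completes the CIP/KIP family, went the other way from p21. It averaged 18.8 ± 2.8 CPM in siBYSL and 10.3 ± 0.69 CPM in siNC (SD, n = 3 each; log2 fold change 0.87, SE 0.11, edgeR adjusted p = 1.6e-04).

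Levels of different genes are compared per length, as CPM per kilobase of annotated exon. On that scale CDKN1A made up 36.8%, 37.6% and 39.0% of CDKN1A plus CDKN1B in siBYSL 1 to 3, against 68.1%, 67.9% and 68.4% in siNC 1 to 3. CDKN1A was the larger of the pair in every siNC library and the smaller in every siBYSL library.

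The INK4 genes moved in opposite directions. CDKN2C (ENSG00000123080.12, chromosome 1, 50960745 to 50974633, plus strand), which encodes p18, stood at 53.03, 54.3 and 59.2 CPM in siBYSL 1 to 3, against 45.6, 42.6 and 44.4 CPM in siNC 1 to 3. All siBYSL values were the higher ones. CDKN2C rose by 0.33 on the log2 scale (SE 0.062, 95% interval 0.19 to 0.46, edgeR adjusted p = 0.0019). It is the only gene of the 10 that was called higher.

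CDKN2D (ENSG00000129355.7, chromosome 19, 10566462 to 10569059, minus strand), which encodes p19, stood at 39.0, 39.9 and 43.6 CPM in siBYSL 1 to 3, against 52.5, 51.0 and 51.5 CPM in siNC 1 to 3. Every siBYSL library lay below every siNC library. CDKN2D fell by 0.34 (SE 0.060, 95% interval -0.47 to -0.21, edgeR adjusted p = 0.0013). Per length, CDKN2C made up 38.1%, 38.2% and 38.1% of CDKN2C plus CDKN2D in siBYSL 1 to 3, against 28.2%, 27.5% and 28.1% in siNC 1 to 3. That share varied by 0.04 percentage points among siBYSL libraries (SD), although both levels differed between them. CDKN2B, the INK4 gene for p15, had 2, 1 and 5 counts in siBYSL 1 to 3 and 0 in each siNC library, too few to test. No row of the count table carried the symbol CDKN2A, so that gene could not be tested.

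**Figure D3:**
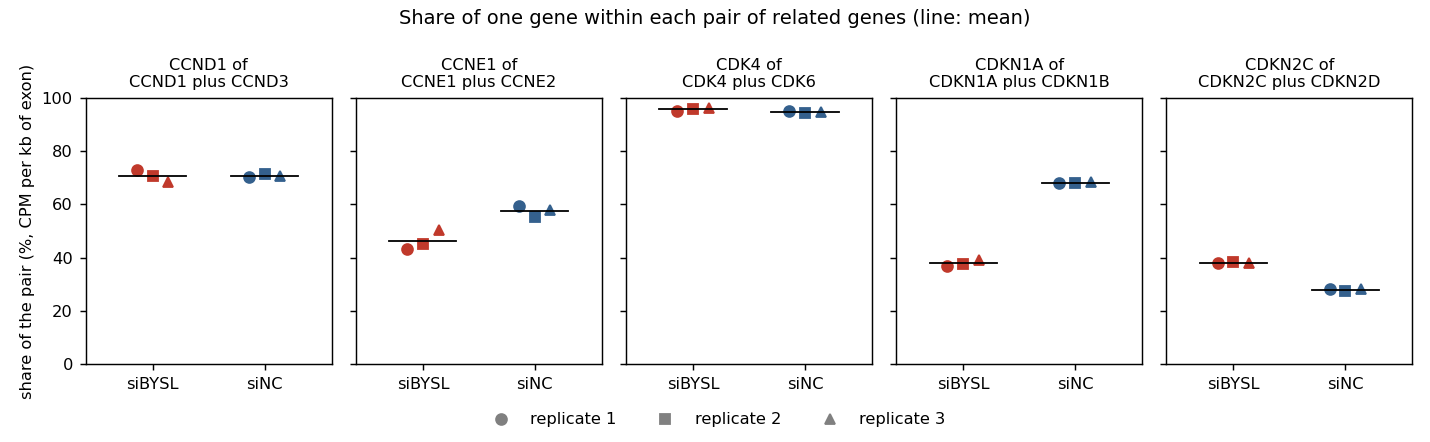
Share (%) of the first gene within each of 5 pairs of related genes, from CPM per kilobase of annotated exon, in every library; siBYSL in red at the left, siNC in blue at the right, lines at the means, with markers for the replicate. The CDKN1A share is 36.8% to 39.0% in siBYSL and 67.9% to 68.4% in siNC, and the CCND1 share overlaps between groups.

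Both D-type cyclin genes fell by nearly the same amount. CCND1 (ENSG00000110092.4, chromosome 11, 69641087 to 69654474, plus strand) encodes cyclin D1, which links growth factor signals to CDK4 and CDK6. It stood at 537, 507 and 503 CPM in siBYSL 1 to 3, against 650, 658 and 638 CPM in siNC 1 to 3. All siBYSL libraries lay below all siNC libraries. CCND1 fell by 0.33 (SE 0.052, 95% interval -0.44 to -0.22, edgeR adjusted p = 6.2e-04). Its 3′ UTR held a match to the passenger seed, GTCATCT, as 12.1% of genes did, at chr11:69652929-69652952 on the plus strand, shown with the match in capitals.
CCND1 3′ UTR: gcgtttcccagaGTCATCTgattg
The annotated exons of CCND1 share 497 bases with LTO1 on the other strand. LTO1 averaged 39.1 CPM in siBYSL and 46.8 CPM in siNC and fell as well, by 0.26. Whether the counting used the strand of the reads is not given in the sources used here, so reads in the shared bases may belong to either gene.

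CCND3 (ENSG00000112576.13, chromosome 6, 41934933 to 42050357, minus strand) encodes cyclin D3. It stood at 239, 253 and 278 CPM in siBYSL 1 to 3, against 332, 316 and 320 CPM in siNC 1 to 3. The groups did not overlap, and siBYSL 3 lay nearest to siNC. CCND3 fell by 0.33 (SE 0.062, 95% interval -0.47 to -0.19, edgeR adjusted p = 0.0019). CCND3 is the direct neighbour of BYSL: the genes lie tail to tail on opposite strands with 1886 bases between them and share no exon. TAF8, 155 bases from the far end of CCND3, averaged 79.8 CPM in siBYSL and 76.8 CPM in siNC and was not called (log2 fold change 0.06, edgeR adjusted p = 0.471). MED20, 48 bases from the other end of BYSL, fell by 0.43.

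Per length, CCND1 made up 73.0%, 70.7% and 68.5% of CCND1 plus CCND3 in siBYSL 1 to 3, against 70.1%, 71.4% and 70.6% in siNC 1 to 3. The groups overlapped, and the mean was 70.7% in each. With the longest annotated transcript as the length, in place of all exons, the mean was 52.8% in each. CCND2, the D-type cyclin gene with little transcript in these cells, fell to 1.46 ± 0.13 CPM in siBYSL, against 3.499 ± 0.63 CPM in siNC (SD, n = 3 each; log2 fold change -1.25, edgeR adjusted p = 3.3e-04). CCND2 held 1 guide-seed heptamer in its 3′ UTR, as did CCNG2, which rose by 0.34, and CDKN3, which was not called (0.08, edgeR adjusted p = 0.273).

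Of 22 genes that feed into cyclin D transcription, 8 fell and 4 rose, with a median of 0.05; 54.5% were called, against 36.9% of all genes. The AP-1 genes FOSL1 and JUNB fell by 0.80 and 0.52, ETS1, an effector of RAS signals, by 0.74 and the NF-kB subunit gene RELA by 0.33. The 4 rises were ETS2 and STAT3, by 0.43 each, TCF7L2, by 0.25, and the Wnt mediator CTNNB1, by 0.26. CTNNB1 codes for beta-catenin. Without siBYSL 3 the count of rises was 9, and without siNC 2 or siNC 3 the count of falls was 5. Over all genes, 3929 were higher without siBYSL 3, against 3032 with every library. Genes called lower numbered 2297 without siNC 2 and 2105 without siNC 3, against 3027.

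The E-type cyclin genes did not move together. CCNE1 (ENSG00000105173.14, chromosome 19, 29811898 to 29824308, plus strand) encodes cyclin E1, the partner of CDK2 at the entry to S phase. It stood at 15.1, 15.4 and 14.2 CPM in siBYSL 1 to 3, against 23.8, 22.2 and 21.7 CPM in siNC 1 to 3. Each siBYSL library was well below each siNC library. CCNE1 fell by 0.60 (SE 0.072, 95% interval -0.76 to -0.44, edgeR adjusted p = 1.1e-04), the largest fall among the 4 cyclin genes. Its 3′ UTR held no heptamer of either strand.

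CCNE2 (ENSG00000175305.18, chromosome 8, 94879770 to 94896678, minus strand) encodes cyclin E2. It stood at 34.4, 32.5 and 24.1 CPM in siBYSL 1 to 3, against 27.98, 30.9 and 27.4 CPM in siNC 1 to 3. Libraries siBYSL 1 and 2 lay above all siNC libraries and siBYSL 3 lay below them. With all libraries the log2 fold change was 0.08 (SE 0.11, 95% interval -0.17 to 0.33, edgeR adjusted p = 0.627). Without siBYSL 3 it was 0.22 and passed the test (edgeR adjusted p = 0.00637), and without siBYSL 1 it was -0.02. The annotated exons of CCNE2 share 1629 bases with INTS8 on the other strand, a gene for a subunit of the Integrator complex. INTS8 averaged 36.4 ± 0.63 CPM in siBYSL and 31.6 ± 0.99 CPM in siNC (SD, n = 3 each) and rose by 0.20.

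Per length, CCNE1 made up 43.1%, 45.0% and 50.3% of the E-type pair in siBYSL 1 to 3, against 59.5%, 55.4% and 57.7% in siNC 1 to 3. The groups did not overlap, and siBYSL 3, in which CCNE2 was low, came nearest to siNC.

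Of the kinase genes, CDK6 fell and the fall of CDK4 was at the edge of the test. CDK4 (ENSG00000135446.17, chromosome 12, 57747727 to 57756013, minus strand) stood at 151, 165 and 174 CPM in siBYSL 1 to 3, against 196, 175 and 183 CPM in siNC 1 to 3. The highest siBYSL library came close to the lowest siNC library. The log2 fold change was -0.18 (SE 0.065, 95% interval -0.32 to -0.04, edgeR adjusted p = 0.0499). The call was lost without siBYSL 1 (-0.12), siBYSL 2 (-0.19), siNC 1 (-0.14), siNC 2 (-0.22) or siNC 3 (-0.19), and it was kept without siBYSL 3 (-0.23, edgeR adjusted p = 6.4e-04). With library totals in place of scaling factors the value was -0.10 (edgeR adjusted p = 0.22). CDK4 shares 1369 exon bases with TSPAN31 on the other strand, which averaged 31.6 ± 1.3 CPM in siBYSL and 27.1 ± 0.40 CPM in siNC (SD, n = 3 each) and rose by 0.22.

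CDK6 (ENSG00000105810.10, chromosome 7, 92604921 to 92836594, minus strand) stood at 29.5, 26.5 and 27.4 CPM in siBYSL 1 to 3, against 38.5, 39.1 and 38.2 CPM in siNC 1 to 3. The siBYSL libraries all lay below the siNC libraries, which hardly differed among themselves. CDK6 fell by 0.47 (SE 0.062, 95% interval -0.61 to -0.34, edgeR adjusted p = 1.9e-04). Its annotated 3′ UTR of 10219 bases is the longest of the 10 genes and held 2 guide-seed heptamers and 1 passenger-seed heptamer. The guide-seed matches, at chr7:92614390-92614413 and chr7:92605606-92605629 on the minus strand, are shown with the heptamer in capitals.
CDK6 3′ UTR, 739 bases after the stop codon: agtcttcagaatGCTGAATttact
CDK6 3′ UTR, 9523 bases after the stop codon: agaatgctctgaGCTGAATgctct
Neither is followed by an A, so neither is an octamer.

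Guide-seed heptamers also occurred in the coding sequence of 3 of the 10 genes, CDK6, CCNE1 and CDKN2D. Of the 13067 genes 11.1% carried one there, and 24.2% of those fell, against 20.5% of the genes without one. The matches are shown in the same way, read on the transcript strand, at chr7:92615144-92615167 for CDK6, chr19:29822025-29822048 for CCNE1 and chr19:10567166-10567189 for CDKN2D.
CDK6 coding sequence: gaacacctcggaGCTGAATacagc
CCNE1 coding sequence: tattgtgtcctgGCTGAATgtata
CDKN2D coding sequence: agctttctggcaGCTGAATctgat
The match in CDK6 is an octamer. CCND1, CCND3 and CDK4 fell with no guide-seed heptamer in the coding sequence or the 3′ UTR, as searched here, and the other genes without one were CDKN1B, CDKN2C and CCNE2.

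**Figure D4:**
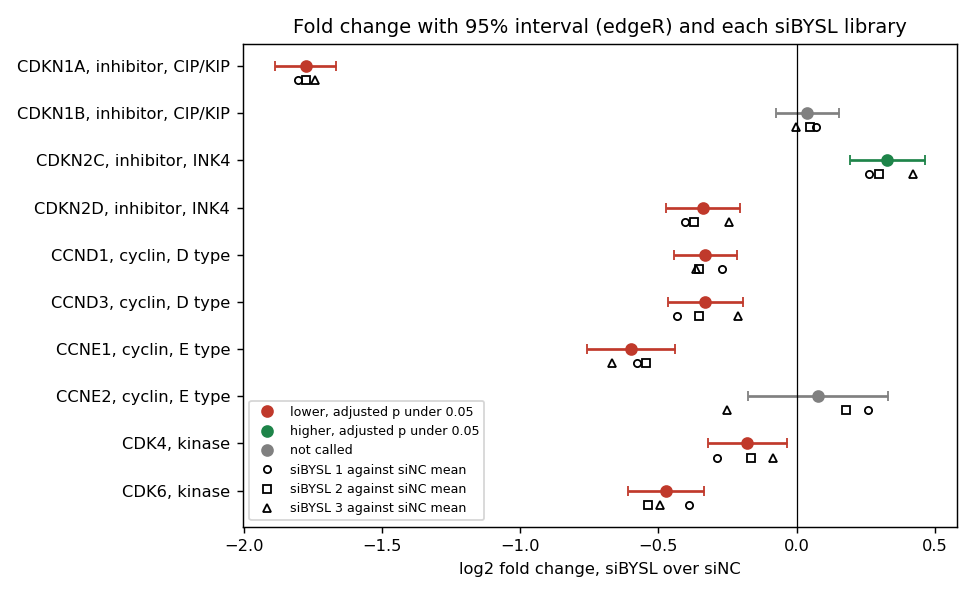
Log2 fold change of the 10 genes, siBYSL over siNC, with 95% intervals from edgeR (red for lower and green for higher at an adjusted p under 0.05, gray for not called); open markers give each siBYSL library against the siNC mean. CDKN1A lies at -1.78, the other called falls between -0.60 and -0.18, and in CCNE2 siBYSL 3 lies on the other side of zero from siBYSL 1 and 2.

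The order of the levels per kilobase of exon changed at 2 places between groups. In siBYSL it ran from CCND1 (106.8 CPM per kb) through CDK4 (51.5), CCND3 (44.3), CDKN2D (27.2), CDKN1B (20.3), CDKN2C (16.7), CDKN1A (12.4), CCNE2 (6.90) and CCNE1 (5.84) to CDK6 (2.27). In siNC CDKN1A stood higher in the order, at 42.35 CPM per kb directly behind CCND1 (134.3), CDK4 (58.3) and CCND3 (55.6), and CCNE1 (8.85) stood above CCNE2 (6.54). CDK4 and CCND3 overlapped between libraries in either group, as did CCNE2 and CCNE1 in siBYSL, so their order is not settled. With the longest annotated transcript as the length, CCND3 stood at 107.2 CPM per kb in siBYSL and 134.8 in siNC. That was above CDK4 (78.6 in siBYSL, 89.0 in siNC) and below CCND1 (119.8 in siBYSL, 150.6 in siNC) on the same scale.

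Of 17 genes of the RB-E2F switch, on which these kinases act, 5 fell and 2 rose, with a median of -0.03; the share called, 41.2%, was near the 36.9% of all genes. CDK2, the kinase that cyclin E activates, averaged 65.7 ± 6.1 CPM in siBYSL and 90.9 ± 2.5 CPM in siNC (SD, n = 3 each) and fell by 0.47. CDC25A, the phosphatase that activates CDK2, fell by 0.43, and the repressor-type genes E2F5 and E2F4 fell by 0.54 and 0.31. RB1 averaged 70.2 CPM in siBYSL and 69.0 CPM in siNC (log2 fold change 0.03, edgeR adjusted p = 0.88), and E2F1 averaged 73.2 CPM in siBYSL and 73.9 CPM in siNC (-0.01, edgeR adjusted p = 0.877). The 2 rises were RBL1, which encodes the RB relative p107, and TFDP2, a partner of E2F proteins. There were 6 rises without siBYSL 3 and 1 without siBYSL 2. All genes called higher numbered 3032 with every library, 3929 without siBYSL 3 and 2265 without siBYSL 2.

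Genes that E2F proteins drive in S phase were called in a single direction. Of 18 tested, 12 fell and 0 rose by edgeR, with a median of -0.28. The share called was 66.7%. Over all genes tested 36.9% were called, 18.4% as lower. At an unadjusted p under 0.05, and by DESeq2 or limma-voom, the count of rises was also 0, and the count of falls was 9 with library totals. TYMS fell by 0.44, CDC6 by 0.39, FEN1 by 0.37 and RRM2 by 0.33. TYMS and RRM2 supply nucleotides, CDC6 loads the replicative helicase, and FEN1 trims Okazaki fragments. PCNA, the sliding clamp, averaged 217.0 CPM in siBYSL and 209.8 CPM in siNC and was not called (0.05, edgeR adjusted p = 0.473).

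Of 16 genes for the turnover of p21, p27 and G1 cyclins by ubiquitin, 4 fell and 2 rose, with a median of -0.08. Most encode parts of ubiquitin ligases, but some, USP2 among them, encode enzymes that remove ubiquitin. The share called, 37.5%, was near the 36.9% of all genes. SKP2 and its cofactor CKS1B, which mark p27 for degradation, fell by 0.48 and 0.40, and the adaptor gene DDB1 fell by 0.18, while FBXO4, which acts on cyclin D1, rose by 0.45. The count of falls was 7 without siBYSL 3 and 2 without siNC 1 or siNC 3. All genes called lower numbered 3027 with every library and 4075 without siBYSL 3. They numbered 2252 without siNC 1 and 2105 without siNC 3. The other rise, USP2, stood at 0.53 CPM in siBYSL and 0.26 CPM in siNC, and the count of rises was 1 without siBYSL 1, siBYSL 2 or any siNC library. Of the 3 subunits of the kinase that activates CDKs, cyclin H (CCNH) fell by 0.42 and CDK7 by 0.22, so 66.7% were called. MNAT1 was at -0.03 (edgeR adjusted p = 0.712). Of 7 further inhibitor and cyclin genes tested, 3 rose and 2 fell, so 71.4% were called. For either of these small lists the share over all genes was 36.9%. Besides CDKN1C and CCND2, the cyclin G genes CCNG1 and CCNG2 changed by -0.49 and 0.34, and CABLES1 rose by 0.34. CDK3 had at most 3 counts in a library.

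**Figure D5:**
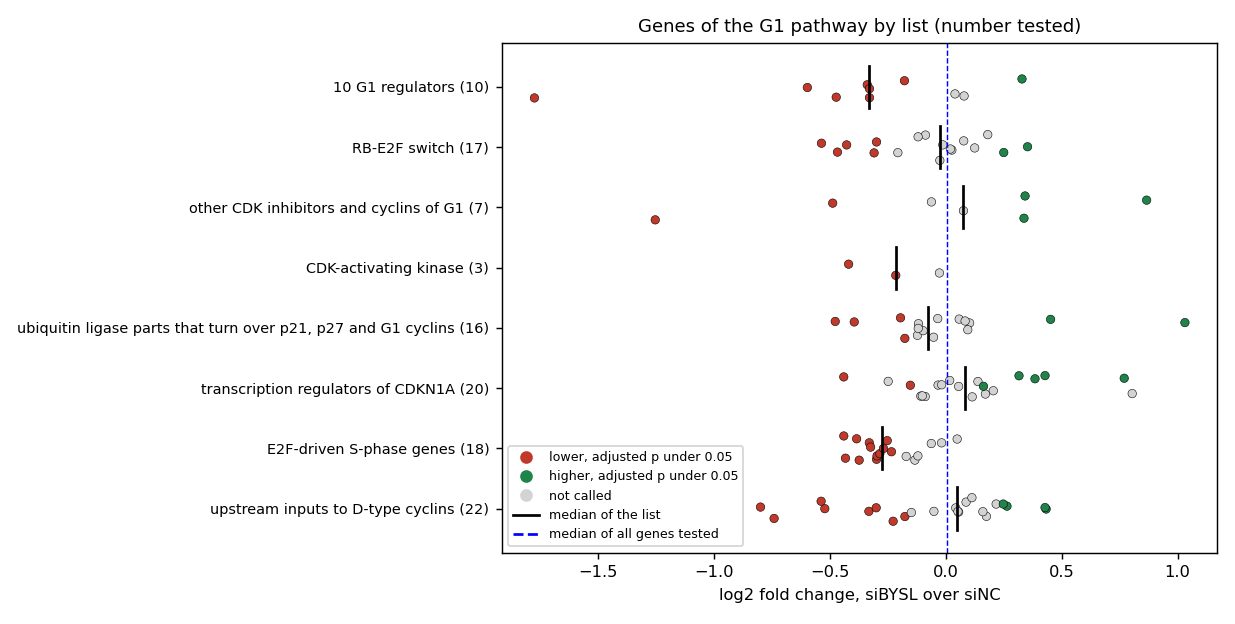
Log2 fold change (siBYSL over siNC) of the 10 genes and of the tested genes in 7 lists of the G1 pathway, 1 point a gene; red fell, green rose, gray was not called, black lines are list medians and the dashed line is the median of all genes tested. The S-phase genes have the lowest list median apart from the 10 genes, at -0.28, and hold no green point.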

How the data were processed

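The deposited values are raw counts per gene, whole numbers made by the authors from strand-specific poly(A) libraries of 150 nt paired-end reads, per the labels' protocols. Per the submitters' processing notes, HISAT2, DESeq2 and GRCh38.p13 are named, with no role given; how reads were counted, and on which annotation, is not given in the sources used here. Counts were filtered with filterByExpr, leaving 16412 genes, scaled with TMM factors and tested with edgeR 4.0.16 in R 4.3.3 (robust quasi-likelihood test with group as the only term, Benjamini-Hochberg over all genes). The SE is the absolute log2 fold change over the square root of F. The p-values describe the spread among 3 cultures a group of 1 line. Alternatives used limma 3.58.1 and DESeq2 1.42.0. The test was tried on simulated counts. Gene models, exon lengths and 3′ UTRs came from GENCODE 29 (GRCh38), which may differ from the annotation behind the counts; strands of the siRNA came from the labels. Named genes were the 10 genes, BYSL, up to 4 called genes of each list by smallest p, and the 5 genes most like CDKN1A. Annotated neighbours of the 10 and markers of the line and of other cell types were also named. MYC, EZH2, TP73, SMAD2, CTNNB1, ETS2, TCF7L2, RB1, E2F1, RBL1, TFDP2, PCNA, USP2, MNAT1, CCNG2 and CDKN3 were added after their values were seen. These 10 genes and the lists were chosen with earlier results of these data known; 1 gene of a list and 1 whole list are not reported here.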

Additional observations from a re-analysis of the deposited data

How the results depend on the processing

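Of 140 fold changes of the 10 genes under alternatives, 130 kept their side of the threshold, and their direction where called. Of the rest, 9 concerned CDK4, which lost its call, and 1 CCNE2, which gained it. Without siBYSL 1 the uncalled CCNE2 changed sign (-0.017). CDK4 was not called with library totals (-0.10), upper-quartile factors (-0.13), the stricter filter of 1 CPM in 3 libraries (-0.17) or the replicate block (-0.18). Leaving out each library in turn gave -0.23 to -0.12 for CDK4, -0.017 to 0.22 for CCNE2 and -1.79 to -1.76 for CDKN1A. With library totals 1989 genes were lower in all (3027 with TMM) and 4106 higher (3032). Counts of falls were then 1 in the CDK-activating kinase and 2 in the ubiquitin turnover genes. They were 1 among regulators of CDKN1A and 5 among inputs to D-type cyclins. Regulators of CDKN1A also held 1 fall with upper-quartile factors, the stricter filter, the DESeq2 Wald test and the replicate block. The ubiquitin turnover genes held 1 rise with no filter, the stricter filter, the Wald test and the block. Without each library in turn, rises ran from 1 to 6 in the RB-E2F switch and 4 to 9 among regulators of CDKN1A (falls 1 to 3). They ran from 3 to 9 among inputs to D-type cyclins (falls 5 to 9) and 1 to 2 among ubiquitin turnover genes (falls 2 to 7). Over all genes, rises ran from 2121 to 3929 and falls from 2105 to 4075. The cause was not tested. Of 196 list counts under alternatives, 165 stayed within 1.5 times. Deviations of same-numbered libraries from their group means correlated at -0.129, 0.0596 and 0.0106 over genes. With 3 libraries a group, these values cannot show whether libraries of the same number were handled together. The replicate block called 2802 genes higher and 2764 lower. The length of the longest transcript in place of all exons moved the CDKN1A share difference from -30.3 to -29.5 percentage points. It moved the mean CCND1 share from 70.7% to 52.8% in either group. Low counts limit CDKN2B and CDK3.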

Other observations

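Genes that lie within 5000 bases of one of the 10 genes were read from the annotation, whatever their fold change. APOLD1, 3545 bases from CDKN1B on the same strand, averaged 80.3 CPM in siBYSL and 101.8 CPM in siNC and fell by 0.34, while CDKN1B was not called. FAF1, 481 bases from CDKN2C on the other strand, averaged 66.7 CPM in siBYSL and 69.8 CPM in siNC and was not called (edgeR adjusted p = 0.349), while CDKN2C rose. KRI1, 424 bases from CDKN2D, was not called (log2 fold change -0.14, edgeR adjusted p = 0.136), and AP1M2, 3611 bases from CDKN2D on the same strand, averaged 61.8 CPM in siBYSL and 72.0 CPM in siNC and fell by 0.22 (edgeR adjusted p = 0.0478). NDUFAF6, which overlaps the span of CCNE2 without a shared exon base, was not called (edgeR adjusted p = 0.973), and MARCHF9, which overlaps the span of CDK4 without a shared exon base, fell by 0.44. DINOL, the noncoding gene that shares 146 exon bases with CDKN1A on the other strand, had 3, 1 and 0 counts in siBYSL 1 to 3 and 1, 0 and 0 counts in siNC 1 to 3.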
